A study of Sus scrofa with 14 samples.

Results

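A module of 103 of the 19588 porcine genes in the expression table had a mean normalized count of at least 40 in both embryonic stem cell-like groups grown with inhibitors, pESCLC-FLB2i and pESCLC-FL6i, and a mean below 15 in each of the 5 other groups. These group means chose the genes, so the contrast of the inhibitor-grown pESCLC with the other groups is described here and was not tested for them. RNA had been sequenced from 14 samples, 2 in each of 7 groups, to compare embryo-derived cells and induced pluripotent stem cells (piPSC) of the pig in different media. A normalized count is a read count divided by a size factor of its sample.

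The pESCLC-primary samples were outgrowths of the inner cell mass of porcine blastocysts in F, a medium with the growth factor FGF2. In pESCLC-F, lines A1 and A2 had been passaged on in F to passage 2. Cells went from F into FL6i at culture day 8 and, at day 18, some went on from FL6i into FLB2i. FL6i holds FGF2, LIF and inhibitors of GSK3A, of MAP2K1, MAPK8 and MAPK14, and of TGFB1 and BMP signals. FLB2i holds FGF2, LIF, the protein BMP4 and inhibitors of GSK3A and TGFB1. By the label codes, both pESCLC-FLB2i samples came from line B1, as passage 3 and passage 6, and both pESCLC-FL6i samples from line C2, as passage 3 and passage 9. Each of these pairs of duplicates was therefore 1 line at a lower and a higher passage. Between these groups, p-values measure the spread between passages. In the comparison of passages they measure how far the lines disagree. In the contrasts with other groups they pool the spread within all the groups compared. Both inhibitor groups descend from the FL6i culture, so medium, line of descent and time in culture cannot be told apart when they are set against F. The Lv-piPSC-F samples were induced with lentiviral genes and kept in F, with passage 46 given for the second, whose label has another code than the first, so that they may not be the same subline. The Epi-piPSC lines came from fetal fibroblasts given episomal plasmids, line B5 in FLB2i (passages 9 and 12) and lines C10 and C11 in FL6i (passages 12 and 11). The lines were kept on mouse embryonic fibroblast feeders.

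In the embryonic hindbrain and spinal cord, transcription factors such as ATOH1, LBX1 and PRDM13 divide the dorsal neural tube into domains that give rise to different interneurons. Inhibitory neurons load GABA or glycine into vesicles with the transporter SLC32A1, take glycine back up with SLC6A5, and receive it through glycine receptors such as GLRA2. Of the gene lists used here, the neuron list holds 2 members, the glia list 1 and the neural progenitor list 0, and the roles given to the other members are textbook ones.

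The cells labelled as embryonic stem cell-like in the inhibitor media had few reads of the pluripotency markers that could be measured here. Of 7 such markers 4 had an identifier (NANOG, LIN28A, EPCAM and CDH1), with a summed level of 48.3 to 275 under FLB2i, 107 to 126 under FL6i and 20914 to 26815 in pESCLC-primary and pESCLC-F. It was 3314 to 3798 in Epi-piPSC-FLB2i and 17865 to 38200 in the other piPSC. In pESCLC-primary and pESCLC-F most of the sum was EPCAM (6158 to 8981) and CDH1 (9284 to 12401). LIN28A had 4975 to 5798 there and NANOG 178 to 343. In the inhibitor-grown pESCLC, LIN28A had 0 to 32.3. The sum of 7 primitive endoderm markers was also high in pESCLC-primary and pESCLC-F, 88880 to 227777, beside 134 to 671 in the inhibitor-grown pESCLC. Which cells the EPCAM and CDH1 reads came from was not tested. NANOG alone was lower in Epi-piPSC-FL6i (0.965 and 0.999) than in the inhibitor-grown pESCLC (7.86 to 24.6). POU5F1, SOX2 and SALL4 had no single identifier and were not measured here. The paper reports that POU5F1 and NANOG RNA fell in FLB2i and FL6i but that SOX2 RNA did not. It also reports that staining for POU5F1, NANOG and SOX2 was kept in both media. For 7 neural markers the sum ranged from 73898 to 75273 in the FLB2i samples, from 74267 to 74452 in the FL6i samples and from 8961 to 13298 in pESCLC-primary and pESCLC-F. It was 4295 to 5955 in Lv-piPSC-F, 24648 to 27597 in Epi-piPSC-FLB2i and 48022.5 to 48120 in Epi-piPSC-FL6i. The samples had 6193659 to 58878377 reads on genes, the fewest in pESCLC-FL6i at passage 9, where 1 read was worth 2.62 normalized counts. That library also stood apart in the summed level of 7 fibroblast markers, 289408 there and 226 to 40852 elsewhere, with none of them at 0 in any group. Most of its sum was COL1A1 (155568), COL1A2 (73812.5) and COL3A1 (53973). PDGFRB was lower there (364) than in Epi-piPSC-FLB2i (959 and 802), and each other marker was highest there. In bulk RNA, fewer cells of a type and less RNA per cell cannot be told apart.

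Among 74 members that matched a RefSeq gene by symbol, 4 held the core of RE1 on either strand within 5000 bases of the gene start. RE1 is the element at which the repressor REST binds many neuronal genes. This was 5.41% of the members, and 0.304% of the 13148 genes of the table that matched. The sites are shown because the rule for the module used no sequence. The genes are CELF6, of an RNA-binding protein, IQSEC3, of a synaptic exchange factor, SLC6A5, and SLC7A14, of a transporter family for amino acids. Each lies downstream of the start and is written 5′ to 3′ on the plus strand of Sscrofa11.1, with the letters searched in capitals and, in lower case, the 2 bases left free between them and 6 flanking bases on each side:
CELF6, chr7:60931232-60931260, coding exon: ctgggtTTCAGCACCgcGGACAGcggcgt
IQSEC3, chr5:67446293-67446321, coding exon: ccccgcTTCAGCACCacGGACAGctcctg
SLC6A5, chr2:38826328-38826356, intron: tggcttTTCAGCACCgaGGACAGttcccg
SLC7A14, chr13:109229960-109229988, intron: agaactTTCAGCACCacGGACAGcgccac
The centre of the site was 146, 468, 549 and 1738 bases from the annotated start, in that order. A match is a description of the letters and not of binding. In the 250 bases before the start, CATCTG, an E-box of proneural factors, was found in 17.6% of the members and 11.07% of all, the homeodomain core TAATTA in 6.76% and 3.07%, and the E-box CAGCTG in 13.5% and 12.9%. The TATA box TATAAA was found in 5.41% and 7.64%, the GC box GGGCGG in 50% and 54.3%, the TCF/LEF site ATCAAAG in 1.35% and 1.67%, and the STAT site TTCCNGGAA in 0 of 74 members and 0.768% of all. Letters were searched on both strands.

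Positions were known for the 74 matched members. Among these, only SLC4A10, a bicarbonate transporter gene (chr15:68342607-68655009, plus strand), and DPP4, which encodes a cell surface peptidase (chr15:68661764-68742961, minus strand), were neighbours among protein-coding genes, 6.75 kb apart and without overlap. The matched members had a median length of 51.0 kb, against 29.5 kb for all matched genes, and 37.8% of them were longer than 100 kb, against 18.9%. NRXN3, a presynaptic adhesion gene, was the longest at 1647 kb.

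The median over the members of the group mean was 80 for pESCLC-FLB2i and 183 for pESCLC-FL6i. Among the low groups it was 1.97 for pESCLC-primary, 1.03 for pESCLC-F, 1.04 for Lv-piPSC-F, 3.51 for Epi-piPSC-FLB2i and 1.96 for Epi-piPSC-FL6i. Summed over the members, the level was 14700 (passage 3) and 32204 (passage 6) under FLB2i, 18561 (passage 3) and 41697 (passage 9) under FL6i, and 190 to 475 in the other samples. The low side was most often nearest to the threshold in Epi-piPSC-FLB2i, which had the highest mean of the other groups for 38 members.

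**Figure D1:**
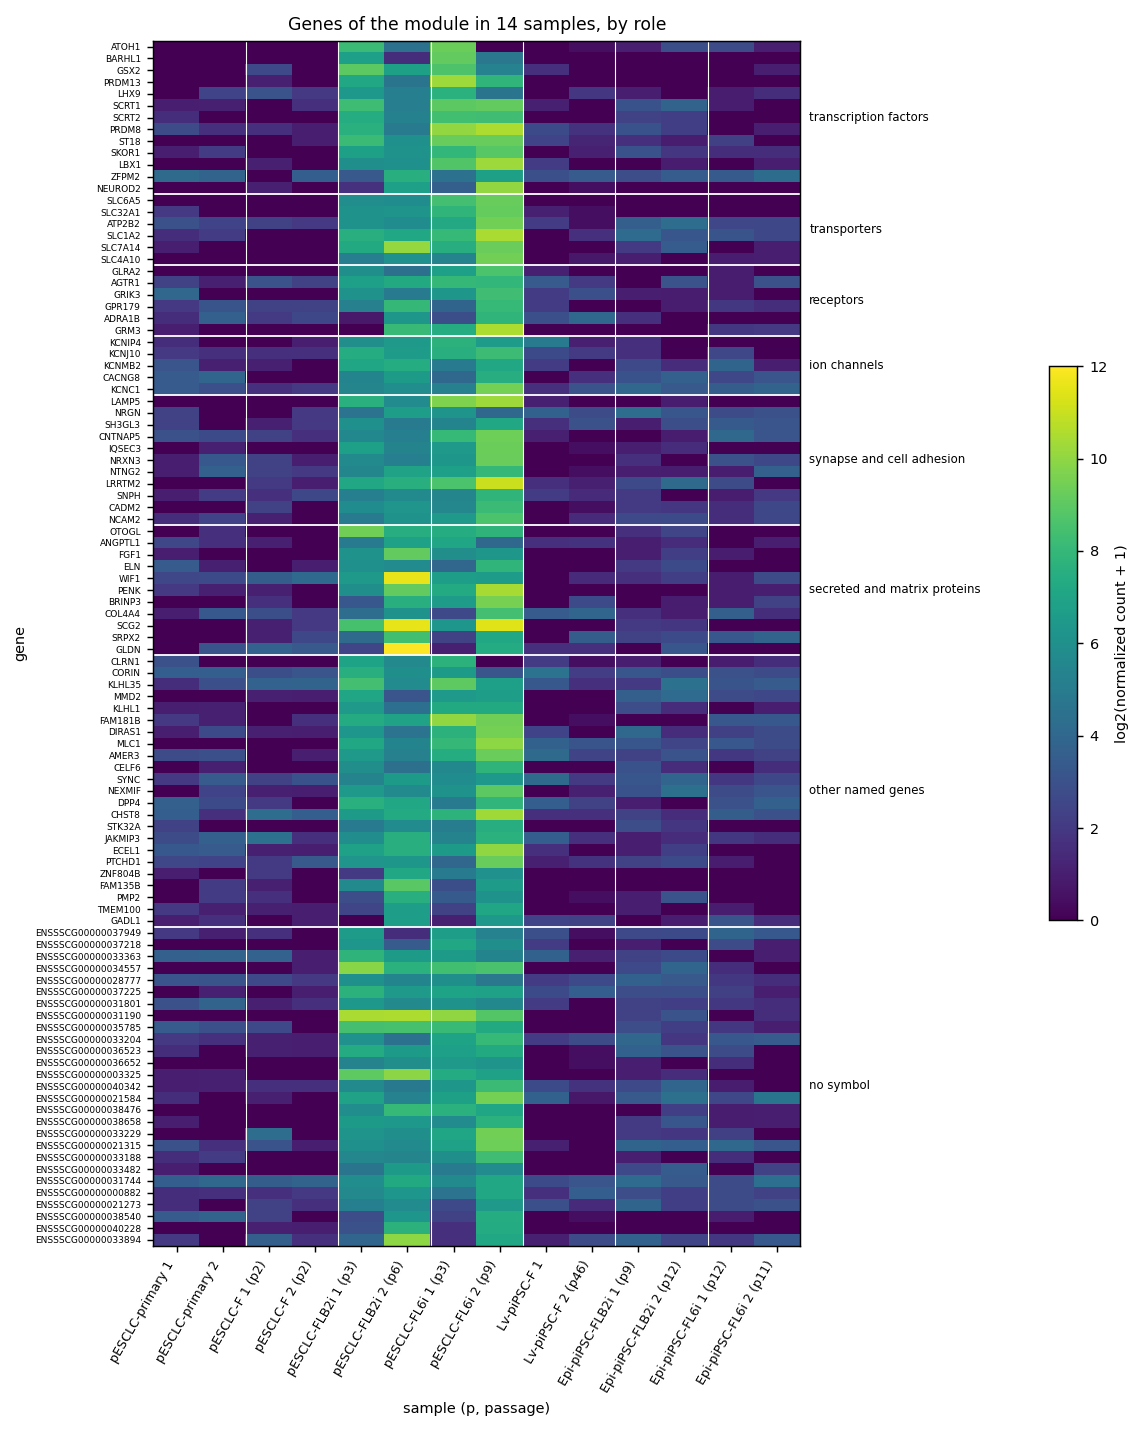
Heat map of log2(normalized count + 1) of the genes of the module, 1 left out (rows, grouped by role) in the 14 samples (columns, p for passage). The 4 columns of pESCLC-FLB2i and pESCLC-FL6i are brighter than the other 10 for most genes, with exceptions at single passages (28 members have at least 1 of the 4 samples below 15), and the order of brightness among the 4 differs from gene to gene.

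Because the rule used means, a member did not have to be high in both passages. All 4 samples of the inhibitor-grown pESCLC reached 40 for 43 members, and at least 1 of them was below 15 for 28 members. In 84 members all 4 samples lay above the other 10, beside 6.25% of the genes in the table. The rule largely fixes this count, so nothing is read from it. The other 19 members overlapped with the other 10 samples, among them GLDN, GRM3 and ATOH1. Over the 4 samples, 61 members varied at least 10-fold and 9 less than 3-fold. The rule on means favours such spread and the share over all genes was not counted, so nothing is read from this either. For 22 members another sample reached 15, the highest being the potassium channel-interacting protein gene KCNIP4 with 28.6 in Lv-piPSC-F. SLC6A5 and the transcription factor gene BARHL1 had no read in any of the other 10 samples. Against a floor of 3 reads in the library where that floor was highest, 3.30 normalized counts, the mean over the 4 samples was at least 78.7-fold higher for SLC6A5 and at least 51.8-fold higher for BARHL1. For BARHL1 this holds for the mean only, which rests mostly on pESCLC-FL6i at passage 3 (547). Its level in pESCLC-FLB2i at passage 6 (1.97) was below that floor.

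Just inside the threshold of 40 were PMP2, a myelin lipid-binding protein gene (mean 40.1 in its lower group), ENSSSCG00000040342 (40.3) and CELF6 (40.7). Just outside it were UNC13C, a vesicle-priming gene (39.5), PRRT1, an AMPA receptor-associated gene (39.2), and ADARB2, an RNA deaminase-family gene (39.1). At the threshold of 15, CHST8, a sulfotransferase gene, had 14.98 in its highest other group, ZFPM2, a GATA cofactor gene, 14.92 and ATP2B2, a calcium pump gene, 14.91. CDH12, a cadherin gene, was outside with 15.03, PDE11A, a phosphodiesterase gene, with 15.12, and EFCAB5 with 15.25.

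The module holds 14 genes that encode transcription factors or their cofactors. ATOH1, a factor of the dorsalmost hindbrain and spinal progenitors, had 292 and 21.7 normalized counts in pESCLC-FLB2i at passages 3 and 6. It had 632 and 0 in pESCLC-FL6i at passages 3 and 9. BARHL1, which acts downstream of ATOH1, had 108 and 1.97 in FLB2i and 547 and 26.2 in FL6i. In both genes the higher passage was the lower sample in each line.

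GSX2, a factor of dorsal and telencephalic progenitors, had 509 and 111 in FLB2i and 406 and 39.3 in FL6i. PRDM13, which promotes inhibitory neuron fates in the dorsal cord, had 146 and 23.6 in FLB2i and 1209 and 231 in FL6i. The LIM-homeodomain gene LHX9 had 82.3 and 35.5 in FLB2i and 203 and 23.6 in FL6i. These 3 genes also had their lower value at the higher passage in both lines.

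LBX1, the determinant of inhibitory dorsal horn neurons, had 61.6 and 64.0 in FLB2i and 433 and 1208 in FL6i, so that both FL6i samples were above both FLB2i samples. PRDM8, a repressor in neuronal projection development, had 194 and 30.5 in FLB2i and 1062 and 1449 in FL6i. SKOR1, a corepressor that binds LBX1, had 112 and 68.0 in FLB2i and 248 and 472 in FL6i. The groups did not overlap for these 3 genes, nor for PRDM13.

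ST18 (289 and 65.0 in FLB2i, 596 and 587 in FL6i), SCRT1 (308 and 34.5, 504 and 558) and SCRT2 (171 and 37.4, 335 and 317) encode zinc finger proteins of new neurons. All 3 were higher in both FL6i samples. NEUROD2, a factor of maturing excitatory neurons, had 2.31 and 107 in FLB2i and 11.5 and 1048 in FL6i. ZFPM2 had 9.23 and 187 in FLB2i and 21.0 and 113 in FL6i. NEUROD2 and ZFPM2 were at least 4-fold higher at the higher passage in both lines, while ATOH1, BARHL1, GSX2 and PRDM13 were at least 4-fold lower in both.

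**Figure D2:**
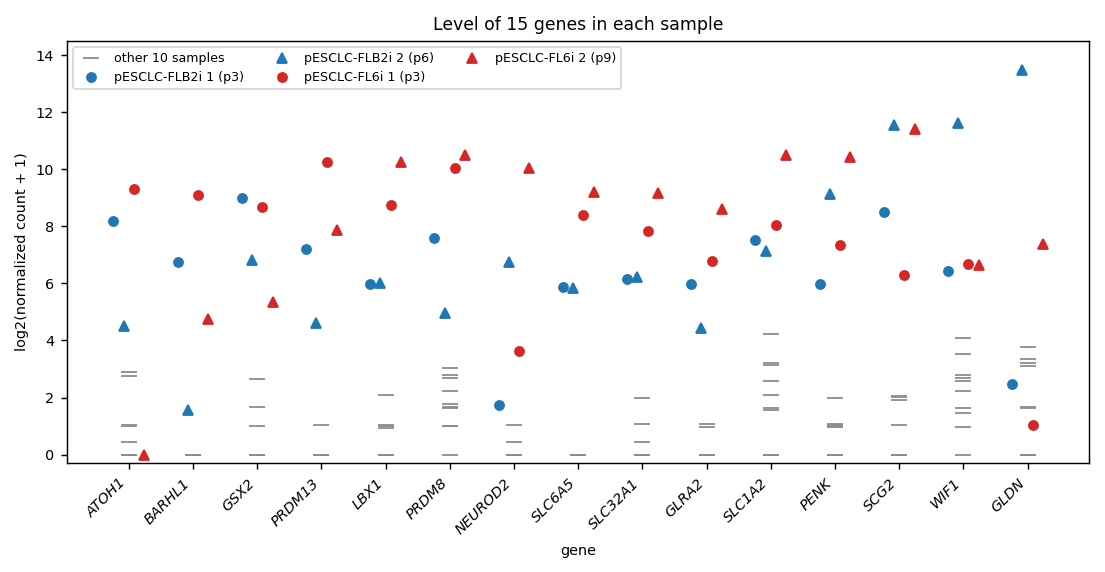
Levels of 15 genes as log2(normalized count + 1), with blue for pESCLC-FLB2i, red for pESCLC-FL6i, circles for passage 3, triangles for the higher passage and grey bars for each of the other 10 samples. Circles lie above triangles of the same colour for ATOH1, BARHL1, GSX2 and PRDM13, and below them for NEUROD2, PENK, SCG2 and GLDN.

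There were 6 transporters. SLC6A5 had 57.7 and 56.2 in FLB2i and 336 and 589 in FL6i. SLC32A1 had 70.8 and 72.9 in FLB2i and 228 and 579 in FL6i. In both genes the FLB2i passages were close to each other and both FL6i samples lay above them.

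The glutamate transporter gene SLC1A2, known from astrocytes, had 182 and 140 in FLB2i and 263 and 1444 in FL6i. ATP2B2 had 67.7 and 56.2 in FLB2i and 152 and 699 in FL6i. SLC7A14 had 153 and 1088 in FLB2i and 178 and 621 in FL6i. SLC7A14 overlapped between the groups and was higher at the higher passage of each line, as was SLC4A10 (33.9 and 67.0 in FLB2i, 39.9 and 697 in FL6i).

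Of the 6 receptors, GLRA2 had 61.6 and 20.7 in FLB2i and 109 and 388 in FL6i. GRIK3, a kainate-type glutamate receptor gene, had 68.5 and 30.5 in FLB2i and 79.7 and 322 in FL6i. AGTR1, the angiotensin II receptor gene, had 109 and 156 in FLB2i and 257 and 249 in FL6i. Each of the 3 was higher in both FL6i samples than in both FLB2i samples.

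GRM3, a metabotropic glutamate receptor gene, had 0 and 271 in FLB2i and 171 and 1483 in FL6i. The orphan receptor gene GPR179 had 36.2 and 250 in FLB2i and 13.6 and 259 in FL6i. The adrenergic receptor gene ADRA1B had 0.769 and 80.8 in FLB2i and 6.29 and 228 in FL6i. For these 3 genes the higher passage was at least 4-fold higher in both lines.

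The 5 ion channel genes were the potassium channel genes KCNC1, KCNJ10 and KCNMB2, KCNIP4, and CACNG8, an AMPA receptor auxiliary subunit gene. KCNC1, of fast-spiking neurons, had 43.1 and 58.1 in FLB2i and 36.7 and 728 in FL6i. KCNMB2 had 135 and 172 in FLB2i and 29.4 and 147 in FL6i, and CACNG8 had 41.5 and 92.6 in FLB2i and 15.7 and 176 in FL6i. KCNJ10, the inward rectifier of glia, had 172 and 93.6 in FLB2i and 191 and 299 in FL6i. KCNJ10 and KCNIP4 (59.2 and 89.7 in FLB2i, 208 and 94.3 in FL6i) were the channel genes whose groups did not overlap.

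A further 11 members act at synapses or in neuronal adhesion. LRRTM2, a postsynaptic partner of neurexins, had 147 and 180 in FLB2i and 387 and 2117 in FL6i. NRXN3, a neurexin gene, had 50.8 and 35.5 in FLB2i and 81.8 and 610 in FL6i. CNTNAP5, a neurexin-superfamily gene, had 47.7 and 35.5 in FLB2i and 258 and 655 in FL6i. The presynaptic GABA neuron gene LAMP5 had 199 and 54.2 in FLB2i and 821 and 1205 in FL6i. These 4 genes and the adhesion gene NCAM2 (30.8 and 70.9 in FLB2i, 88.1 and 385 in FL6i) were higher in both FL6i samples. The remaining 6, CADM2, IQSEC3, NRGN, NTNG2, SH3GL3 and SNPH, overlapped between the groups and ranged from 15.7 to 639 over the 4 samples.

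Another 11 members encode secreted or matrix proteins, and none of these had both samples of a group above both of the other. GLDN, an organizer of the nodes of Ranvier, had 4.62 and 11378 in FLB2i and 1.05 and 165 in FL6i. SCG2, the precursor of the neuropeptide secretoneurin, had 360 and 2983 in FLB2i and 77.6 and 2714 in FL6i. PENK, the enkephalin precursor, had 62.3 and 554 in FLB2i and 162 and 1362 in FL6i. Each was at least 4-fold higher at the higher passage of both lines, as were BRINP3 (8.46 and 185 in FLB2i, 96.5 and 734 in FL6i) and SRPX2 (16.9 and 329, 4.20 and 144), both secreted proteins of the brain.

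WIF1, a secreted WNT antagonist, had 85.4 and 3122 in FLB2i and 102 and 99.6 in FL6i. The growth factor gene FGF1 had 71.6 and 546 in FLB2i and 60.8 and 81.2 in FL6i. WIF1 and FGF1 were thus high in 1 sample, FLB2i at passage 6. The elastin gene ELN (64.6 and 55.2 in FLB2i, 14.7 and 231 in FL6i) and the basement membrane collagen gene COL4A4 (18.5 and 69.0, 5.24 and 341) were highest in FL6i at passage 9. That library held the highest value for 55 members of all roles together, and a link to its high fibroblast markers was not tested. OTOGL, of the inner ear, was highest in FLB2i at passage 3 (675), and the angiopoietin-like gene ANGPTL1 in FL6i at passage 3 (135).

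The remaining 23 named members had means over the 4 samples of 47.1 to 502. FAM181B had 168 and 118 in FLB2i and 1057 and 665 in FL6i, MLC1, a glial membrane protein gene, 144 and 41.4 in FLB2i and 252 and 1003 in FL6i, and CHST8 93.1 and 159 in FLB2i and 213 and 1247 in FL6i. These 3 genes were higher in both FL6i samples, as were DIRAS1 (77.7 and 22.7 in FLB2i, 208 and 731 in FL6i), AMER3 (85.4 and 36.5, 169 and 618) and KLHL1 (86.2 and 19.7, 153 and 157). PMP2 had 6.16 and 184 in FLB2i and 9.44 and 70.7 in FL6i. TMEM100 had 4.62 and 101 in FLB2i and 4.20 and 136 in FL6i, and FAM135B had 50.8 and 490 in FLB2i and 6.29 and 99.6 in FL6i. In these 3 genes, and in GADL1 (0 and 103, 1.05 and 83.8), the higher passage was at least 4-fold higher in both lines.

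KLHL35 had 335 and 55.2 in FLB2i and 520 and 107 in FL6i, at least 4-fold lower at the higher passage of each line. CLRN1, a gene of sensory hair cells, had 122 and 49.3 in FLB2i and 207 and 0 in FL6i. CORIN, which encodes the protease that activates a natriuretic peptide, had 185 and 62.1 in FLB2i and 92.3 and 7.86 in FL6i. All 3 had their lowest value in a higher passage sample. The neuronal endopeptidase gene ECEL1 had 115 and 182 in FLB2i and 92.3 and 1014 in FL6i. NEXMIF, of neurite extension, had 86.2 and 51.2 in FLB2i and 70.3 and 503 in FL6i, and PTCHD1 had 75.4 and 80.8 in FLB2i and 14.7 and 595 in FL6i. For ECEL1, NEXMIF and PTCHD1, FL6i at passage 9 was far above the other 3 samples. DPP4 had 196 and 143 in FLB2i and 29.4 and 238 in FL6i, an order unlike that of its neighbour SLC4A10.

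For 27 members the identifier had no symbol, and their means over the 4 samples ranged from 46 to 1091. ENSSSCG00000031190 was the steadiest of those among the 15 members with the highest means, with 1414 and 1494 in FLB2i and 1012 and 443 in FL6i. ENSSSCG00000003325 had 525 and 966 in FLB2i and 167 and 115 in FL6i. These 2 and ENSSSCG00000035785 were the only members higher in both FLB2i samples than in both FL6i samples. ENSSSCG00000034557 had 946 and 203 in FLB2i and 334 and 369 in FL6i. ENSSSCG00000033894 was highest at passage 6 of FLB2i, with 1005 against 13.8 at passage 3.

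The comparison of pESCLC-FL6i with pESCLC-FLB2i asks whether the 2 inhibitor media, which act in opposite directions on BMP, differ in these genes, and the rule put the same condition on both groups. Each medium is represented by 1 line, and the higher passages differ (6 and 9), so medium, line and passage cannot be told apart here either. No member was called by limma on log2(normalized count + 1), with p-values adjusted by the Benjamini-Hochberg method over 14495 genes and a threshold of 0.05. The background was 0.0% of the genes tested, and the lowest adjusted p of a member was 0.901 in limma and 0.908 in edgeR. At an unadjusted p under 0.05, limma had 16 of the 103 members, which is 15.5% of the members beside 4.58% of all genes. Of the 16, 15 were higher in FL6i (beside 2.61% of all genes) and 1 lower (beside 1.97%). DESeq2 on the recovered whole reads called 9 members, 8.74% beside 1.13% of all genes, and edgeR called 0 of them, beside 0.0%.

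The members called by DESeq2 alone included LBX1, with a log2 difference of 3.51 ± 0.64 (limma, SE, n = 2 and 2) and a DESeq2 adjusted p of 9.9e-05, and SLC6A5, with 2.94 ± 0.52 and a DESeq2 adjusted p of 0.00037. CNTNAP5 (3.29 ± 0.66), FAM181B (2.56 ± 0.45), LAMP5 (3.25 ± 0.73), PRDM8 (3.99 ± 0.95), SLC32A1 (2.32 ± 0.63) and DIRAS1, a RAS-family gene of the brain (3.18 ± 0.95), were likewise higher in FL6i. ENSSSCG00000003325 was lower in FL6i (-2.35 ± 0.50). Neither limma nor edgeR separated these differences from the spread between passages.

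Without a test, 67 members had the higher mean log2 value in FL6i and 36 in FLB2i, with a median difference of 0.88, against -0.00 over all genes tested. Both FL6i samples were above both FLB2i samples for 33 members (32.0%, beside 18.6% of all genes tested) and both FLB2i samples above both FL6i samples for 3 (2.91%, beside 17.4%). The median standard error of the log2 difference was 1.03 over the members and 0.51 over all genes tested, so the members spread more between passages and their shares are not those of genes of equal spread. By role, the median difference was 2.05 for the transcription factors, 2.13 for the transporters, 1.84 for the synapse and adhesion genes, 1.78 for the receptors and 0.90 for the ion channels. It was -0.82 for the secreted and matrix genes and -0.11 for the members without a symbol.

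**Figure D3:**
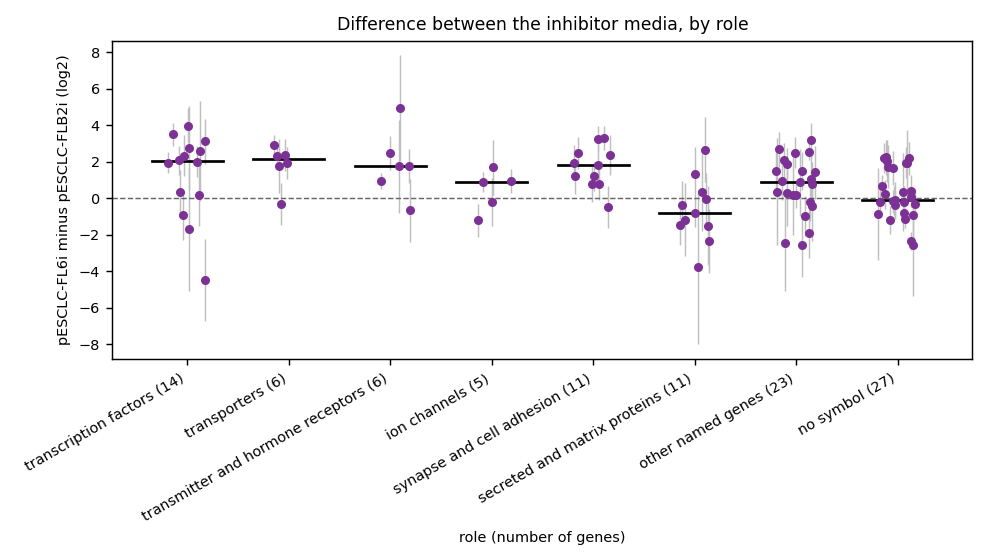
Log2 difference of pESCLC-FL6i minus pESCLC-FLB2i for each of the 103 genes, by role, with bars of 1 standard error from limma, black lines at the median of each role and a dashed line at the median of all genes tested. Medians are near 2 for the transcription factors and transporters and at -0.82 for the secreted and matrix genes, and the bars of many genes are as long as their distance from 0.

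The lower and the higher passage of each line were compared after the data were seen. The rule did not set one against the other, but it used their mean. A gene low at one passage could thus enter through the other, so large differences between passages were favoured among members. GLDN, NEUROD2 and GADL1, for example, were below 15 at passage 3 in both lines. Shares, differences and p-values of members between passages are therefore given as a description. Passage 3 was the lower one in both lines, and the higher was passage 6 in FLB2i and 9 in FL6i. With the line as a term, limma called 0 members, beside 0.0% of 14495 genes, with a lowest adjusted p of 0.146, and 37 members had an unadjusted p under 0.05 (35.9%, beside 12.4% of all genes). edgeR called 0 members as well, and DESeq2 27, of which 20 were higher and 7 lower at the higher passage (26.2%, beside 5.28% of the genes to which it gave an adjusted p).

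The higher passage was higher in both lines for 42 members (40.8%, beside 30% of the genes tested) and lower in both for 18 (17.5%, beside 31.3%), and the lines differed in sign for 43. It was at least 4-fold higher in both lines for 17 members (16.5%, beside 2.69%) and at least 4-fold lower in both for 6 (5.83%, beside 0.559%). Because the rule could admit such genes through 1 passage, nothing is read from these shares. The 6 included KLHL35 and the transcription factor genes ATOH1, BARHL1, GSX2 and PRDM13. The 17 were GLDN, SCG2, PENK, BRINP3, SRPX2, GRM3, GPR179, ADRA1B, NEUROD2, ZFPM2, FAM135B, PMP2, TMEM100, GADL1 and 3 genes without a symbol.

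NEUROD2 had a log2 difference of 5.71 ± 0.72 (higher minus lower passage, SE, n = 2 and 2), SCG2 4.08 ± 0.57, PENK 3.10 ± 0.41 and GLDN 8.66 ± 1.23. BARHL1 had -4.76 ± 0.68, PRDM13 -2.48 ± 0.48 and ATOH1 -6.50 ± 1.44. In DESeq2 the adjusted p was 2.1e-12 for NEUROD2 and 8.5e-07 for BARHL1, and in limma it was 0.146 for both.

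The lines were set side by side without a test of their difference. The median over the members of the log2 difference between passages was 0.04 in FLB2i, against -0.03 over all genes tested. In FL6i it was 1.81, against 0.03. There were 52 members higher at passage 6 of FLB2i and 75 higher at passage 9 of FL6i. FL6i at passage 9 held the highest of the 4 values for 55 members, FLB2i at passage 6 for 22, FL6i at passage 3 for 15 and FLB2i at passage 3 for 11. The same counts were not made over all genes, and the rule used the mean of the passages, so nothing is read from them. The summed level of the fibroblast markers rose with passage in both lines, from 1854 to 40852 in FLB2i and from 866 to 289408 in FL6i. Each marker was higher at the higher passage, but not to the same degree. In FLB2i, PDGFRB (218 and 246), DCN (6.92 and 10.8) and LUM (29.2 and 49.3) rose little beside the collagen genes and POSTN. COL1A1, for example, had 239 and 6951. The part of the fibroblast markers in the differences between passages was not tested. The sum of the neural markers was close between passages, but single markers were not. From the lower to the higher passage, the neuronal tubulin gene TUBB3 had 28281 and 15324 in FLB2i and 31234 and 33041 in FL6i, DCX, of migrating neurons, 3021 and 1151 in FLB2i and 4047 and 10906 in FL6i, and the progenitor filament gene NES 18651 and 22134 in FLB2i and 18921 and 7034 in FL6i. The progenitor genes CRABP1 (55011 and 6085 in FLB2i, 40536 and 6846 in FL6i) and SOX3 (361 and 7.88, 993 and 21.0) were lower at the higher passage of each line. Both were picked after their values were seen, and 31.3% of all genes tested were lower in both lines. Of the neural markers, PAX6 was also lower (639 and 205 in FLB2i, 1666 and 561 in FL6i). ZIC1 was not lower in both (8620 and 11192, 5779 and 5321). The progenitor list as a whole was not compared between passages, and limma called 0 genes between them.

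**Figure D4:**
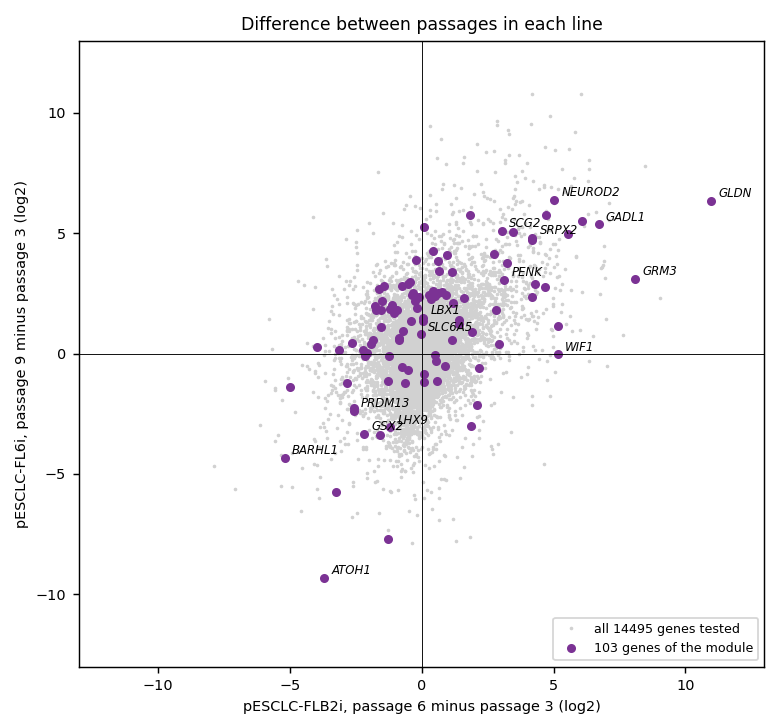
Log2 difference between the higher and the lower passage in pESCLC-FLB2i (x) and pESCLC-FL6i (y), in purple for the 103 genes and grey for all 14495 genes tested. ATOH1, BARHL1, GSX2 and PRDM13 are at the lower left, NEUROD2, GRM3, SCG2, PENK and GLDN at the upper right, and WIF1 near 0 on the y axis and above 5 on the x axis.

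Lists of genes that were not members could be tested in the contrasts that the rule used. They were chosen with earlier results of these data known, so their counts are not independent support. Most of these lists hold no member, so they describe the same samples and not the module. Between pESCLC in the inhibitor media and pESCLC-primary with pESCLC-F, 92 of the 103 members were called higher, a count the rule fixes, beside 22.1% of 15426 genes tested (42.0% in either direction), so nothing is read from it. Of 26 neuron genes that were not members, 25 were called higher and 0 lower, with a median log2 difference of 6.34, against -0.03 over all genes tested. Of 33 neural progenitor genes, 23 were higher and 1 lower (median 4.21), and of 28 HOX genes 21 were higher and 0 lower (median 5.03). The neuron genes included GRIA2, an AMPA receptor subunit gene (log2 difference 9.45 ± 0.66 SE, limma adjusted p = 0.00012), and SYT1, the calcium sensor of vesicle release (9.22 ± 0.77, limma adjusted p = 0.00022). ZIC1 rose by 10.88 ± 0.60 on the log2 scale, and HOXB5 by 6.51 ± 0.32.

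Not every neural gene was on the same side. OTX2, the forebrain and midbrain determinant and also a gene of the epiblast, had 3565 and 4568 in pESCLC-primary, 6664 and 4904 in pESCLC-F, 0 and 0 in FLB2i and 0 and 2.62 in FL6i, with a log2 difference of -11.77 ± 0.45 (limma adjusted p = 2.8e-05). Over all genes tested 20% were called lower. Of 13 pluripotency genes, 0 were higher and 6 lower (median -2.62), among them NODAL (-10.79 ± 0.52), LIN28A (-9.72 ± 1.20) and NANOG (-3.92 ± 0.36). Of 13 primitive endoderm genes 2 were higher and 11 lower (median -7.79), and of 16 trophectoderm genes 0 were higher and 11 lower (median -4.09). Of 18 fibroblast and mesenchyme genes 2 were higher and 1 lower (median 0.76). Of 7 glia genes that were not members, 1 was higher and 3 lower (median -0.18), the 3 being MBP, of myelin (-6.78 ± 0.61), ALDH1L1, of astrocytes (-5.23 ± 0.43), and PDGFRA, of oligodendrocyte progenitors and also of mesenchyme (-3.33 ± 0.98).

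The contrast of pESCLC with Epi-piPSC, both in FLB2i and FL6i, called 87 members higher, again by the rule, beside 19% of 15248 genes tested (31.1% in either direction). Of 26 neuron genes that were not members, 22 were higher and 0 lower (median log2 difference 3.11, against 0.06 over all genes tested), of 27 HOX genes 18 were higher and 0 lower (median 2.35), and of 34 neural progenitor genes 14 were higher and 2 lower (median 1.70). Without the first Epi-piPSC-FLB2i sample, the second, or the second Epi-piPSC-FL6i sample, the neural progenitor genes called higher were 8, 9 and 9. The Epi-piPSC were not without such transcripts. STMN2, a tubulin regulator of neurons, had 28096 and 26938 in Epi-piPSC-FL6i, beside 16060 and 23893 for pESCLC-FLB2i and 12620 and 17587 for pESCLC-FL6i. ZIC1 had 2140 and 2404 in Epi-piPSC-FLB2i. Of 18 fibroblast and mesenchyme genes limma called 0, with 1 at an unadjusted p under 0.05. The contrasts share the pESCLC inhibitor samples, so they are not independent of each other. Between pESCLC-FL6i and pESCLC-FLB2i, limma called 0 genes of any list.

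**Figure D5:**
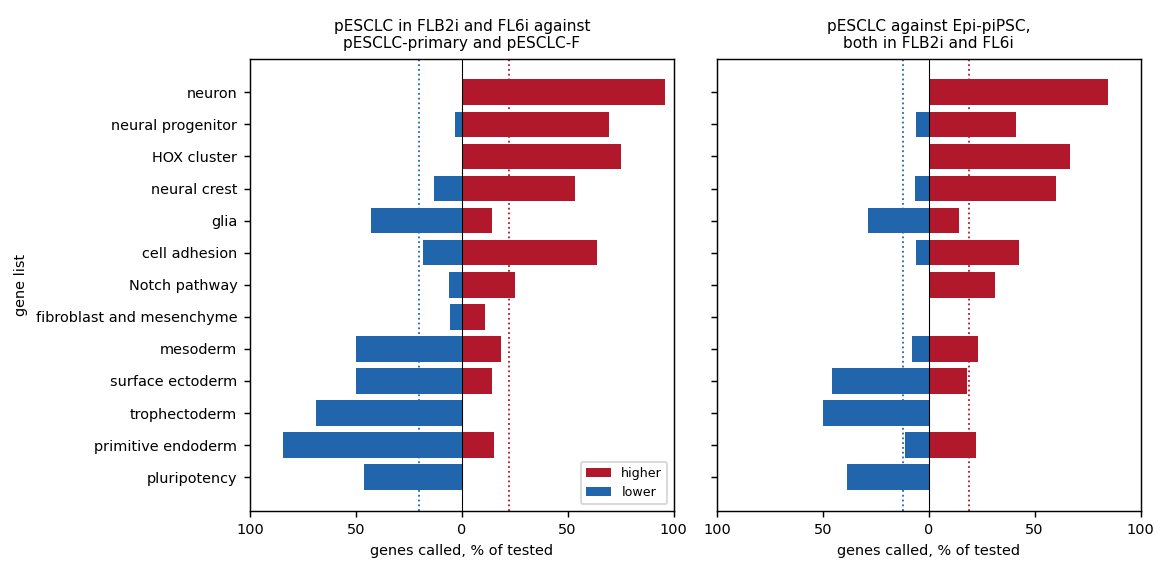
Share of the genes of 13 lists, members left out, that limma called higher (red, to the right) or lower (blue, to the left), in percent of the genes of the list that were tested, in the contrast with pESCLC-primary and pESCLC-F (left) and with Epi-piPSC (right). Dotted lines give the share over all genes tested, 22.1% and 19% for higher. The bars of the neuron list reach furthest to the right in both contrasts.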

How the data were processed

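The authors sequenced polyadenylated RNA from a stranded kit, aligned paired-end reads to Sscrofa11.1 with TopHat2 2.1.0, counted them with HTSeq at its defaults and divided the counts by DESeq2 size factors. The deposited signal values are these normalized counts, with no samples pooled. Antisense, overlapping and near-identical genes are uncertain, and reads of the mouse feeders were not told apart from pig reads. In each sample 100% of values were whole multiples of 1 read (tolerance 1e-06), which gave the reads back. A floor of 3 reads covers counting error only.

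Groups were compared by limma (trended prior, two-sided) on log2(normalized count + 1), over genes reaching 10 normalized counts in 2 or more of the compared samples, with Benjamini-Hochberg adjustment over all of them. The pseudocount understates the changes of low genes. DESeq2, the study's test, needs counts and was run with edgeR on the recovered reads as an alternative; in the comparison of pESCLC-FL6i with pESCLC-FLB2i these called 164 and 0 of 14495 genes. Other alternatives were pseudocounts of 0.1 and 5, other filters, a log2 difference of at least 3, a fit on all samples at once, a replicate block, size factors within a comparison, and each sample left out. The scripts were tested on simulated data. Versions were edgeR 4.0.16, DESeq2 1.42.0 and limma 3.58.1 in R 4.3.3.

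The table names genes by Ensembl identifiers, of which 14151 of 19588, and 76 of 103 members, matched a symbol in a reference table. Positions and sequences are from RefSeq, Sscrofa11.1. The module, the gene lists and the comparisons were chosen with earlier results of these data known. Named genes were the 15 members with the highest mean over the 4 samples, members in a gene list, those nearest the thresholds, adjacent members, transcription factors, ligands and receptors, and, of list genes that are no members, up to 4 a list with the largest called difference. Other members were grouped by role and named after their values were seen, as were NANOG, TUBB3, DCX, NES, CRABP1 and SOX3. Of the members, 1 is not reported by name here.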

Additional observations from a re-analysis of the deposited data

How the results depend on the processing

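The number of genes in the module depended on its thresholds. It was 189 with a mean of at least 20 in both inhibitor groups, 43 with at least 80, 40 with means below 5 elsewhere, 216 with means below 30, and 31 when each sample had to pass. With 1 sample left out it was 78 to 112, the lowest without pESCLC-FL6i replicate 2. Between pESCLC-FL6i and pESCLC-FLB2i, limma called 0 genes, DESeq2 164 and one fit on all 14 samples 68, with 0 for each sample left out. Between the passages, limma called 0 genes, DESeq2 736 and limma over all genes above 0 called 14, and the cause of these differences was not tested. In the contrast with pESCLC in F, 6483 genes were called, 2192 with a log2 difference of at least 3 added, and 4422 to 8484 with 1 sample left out. In the contrast with Epi-piPSC, 4743 genes were called, 825 with that log2 difference, and 1928 to 7998 with 1 sample left out: 1996 and 2147 without the first and second Epi-piPSC-FLB2i samples, 2076 and 1928 without those of Epi-piPSC-FL6i, and 7998 without the first of pESCLC-FL6i. Pluripotency genes called lower in that contrast went from 5 to 2 without either sample of Epi-piPSC-FLB2i or Epi-piPSC-FL6i or without the second of pESCLC-FLB2i. The labels tie no batch to the replicate numbers, which in the inhibitor-grown pESCLC follow the passage (same-numbered samples deviate together there, r = 0.36, with 2 pairs). With the replicate block the calls were 0, 6517 and 4518 for pESCLC-FL6i against pESCLC-FLB2i, against F and against Epi-piPSC. Low values are least precise in pESCLC-FL6i replicate 2, where 3 reads are 7.86 normalized counts.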
